A study of Mus musculus with 12 samples.

Results

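The integrins and laminins are the adhesion receptors of the cell surface and the trimeric proteins of the basement membrane, and their genes were described here in isolated mouse alveolar epithelial type 2 cells (AEC2). Members were the protein-coding genes whose whole symbol in the mouse annotation is that of an integrin alpha subunit, an integrin beta subunit or a laminin chain. The rule found 37 genes, and 36 of them were among the 16080 genes measured: 18 integrin alpha subunits, 8 integrin beta subunits and 10 laminin chains. The remaining gene, Lama1, was not analysed here. The rule used symbols only and no measured value.

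RNA of AEC2 from the lungs of female Bl6 mice at P56 was sequenced in 12 libraries, 4 for each of 3 genotypes of the surfactant protein C (SP-C) gene Sftpc. The tested cells carried SP-C C185G, a mutation of the BRICHOS domain of proSP-C. They were set against SP-C C185Gneo cells, which the study's design calls a hypomorphic control, and against SP-C WT cells. All 3 groups received tamoxifen (200 mg/kg, intraperitoneally, on 2 days) and gave their AEC2 on day 7, so the controls had the drug as well. What drives the tamoxifen-induced expression, and whether a library came from 1 mouse, from several or from mice shared with another library, is not given in the sources used here, so the p-values measure the spread between libraries, which may be technical in part. AEC2 were purified by Dispase digestion, adherence of mesenchymal cells to plastic and depletion of CD45+ cells. The study asked how the AEC2 transcriptome differs after expression of the mutant protein.

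Laminins are trimers of an alpha, a beta and a gamma chain that are secreted and polymerize into the basement membrane under an epithelium. Integrins are pairs of an alpha and a beta subunit: the alpha subunit sets most of the choice of ligand (laminin, collagen, or proteins with an RGD motif such as fibronectin), and several alpha subunits share the common partner β1. In the alveolus, AEC2 rest on such a membrane, and the epithelial integrin αvβ6 is known for releasing active TGF-β from its latent complex.

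Levels are given as normalized CPM, read counts on the authors' scaling of the libraries, and differences as log2 fold changes. A gene was called where the Benjamini-Hochberg adjusted p of the limma fit over all 16080 genes was under 0.05. Each library held 15659512 to 23444287 counts over the measured genes, and 1 count was worth 0.0428 to 0.0616 normalized CPM. The titles and the genotype field of the labels differ, since the titles of the C185Gneo libraries carry the code C185G and those of the C185G libraries another code; groups follow the genotype field. Sftpc itself stood at 2471 to 3059 normalized CPM in C185G, 772 to 1079 in C185Gneo and 7211 to 7674 in WT, so the 3 groups did not overlap. AEC2 markers were all measured and high, with a summed level over 12 genes of 12114 to 15226 in C185G, 34125 to 38065 in C185Gneo and 30172 to 36547 in WT. All 12 fell in C185G against either control, and 11 did with quantile normalization. The library C185Gneo replicate 1 stood apart from the rest, with a second principal component of 28.8 against -15.7 to 7.25 in the other 11, and it held the lowest summed levels of mesenchymal and mesothelial markers.

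Of the 36 integrin and laminin genes, 14 rose and 6 fell in C185G against WT. In the limma fit with Benjamini-Hochberg adjustment, 55.0% of all genes were called in this comparison, 27.3% higher and 27.8% lower. The members' 20 calls of 36 thus lie near the background as a whole. Against C185Gneo, 17 rose and 4 fell, where the background was 57.8% called, 29.2% higher and 28.7% lower. Both comparisons share the C185G libraries. Changes over 2-fold were made by 6 members that rose and 1 that fell against WT (5.05% and 6.5% of all genes), and by 7 that rose and 1 that fell against C185Gneo (6.41% and 6.93%). The groups did not overlap for 18 members against WT (48.7% of all genes) and for 16 against C185Gneo (49.9%). The median log2 fold change of the members was 0.08 against WT and 0.32 against C185Gneo, beside medians over all genes of -0.000442 and 0.00378. In these bulk preparations fewer cells of a type and less RNA per cell cannot be told apart.

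**Figure D1:**
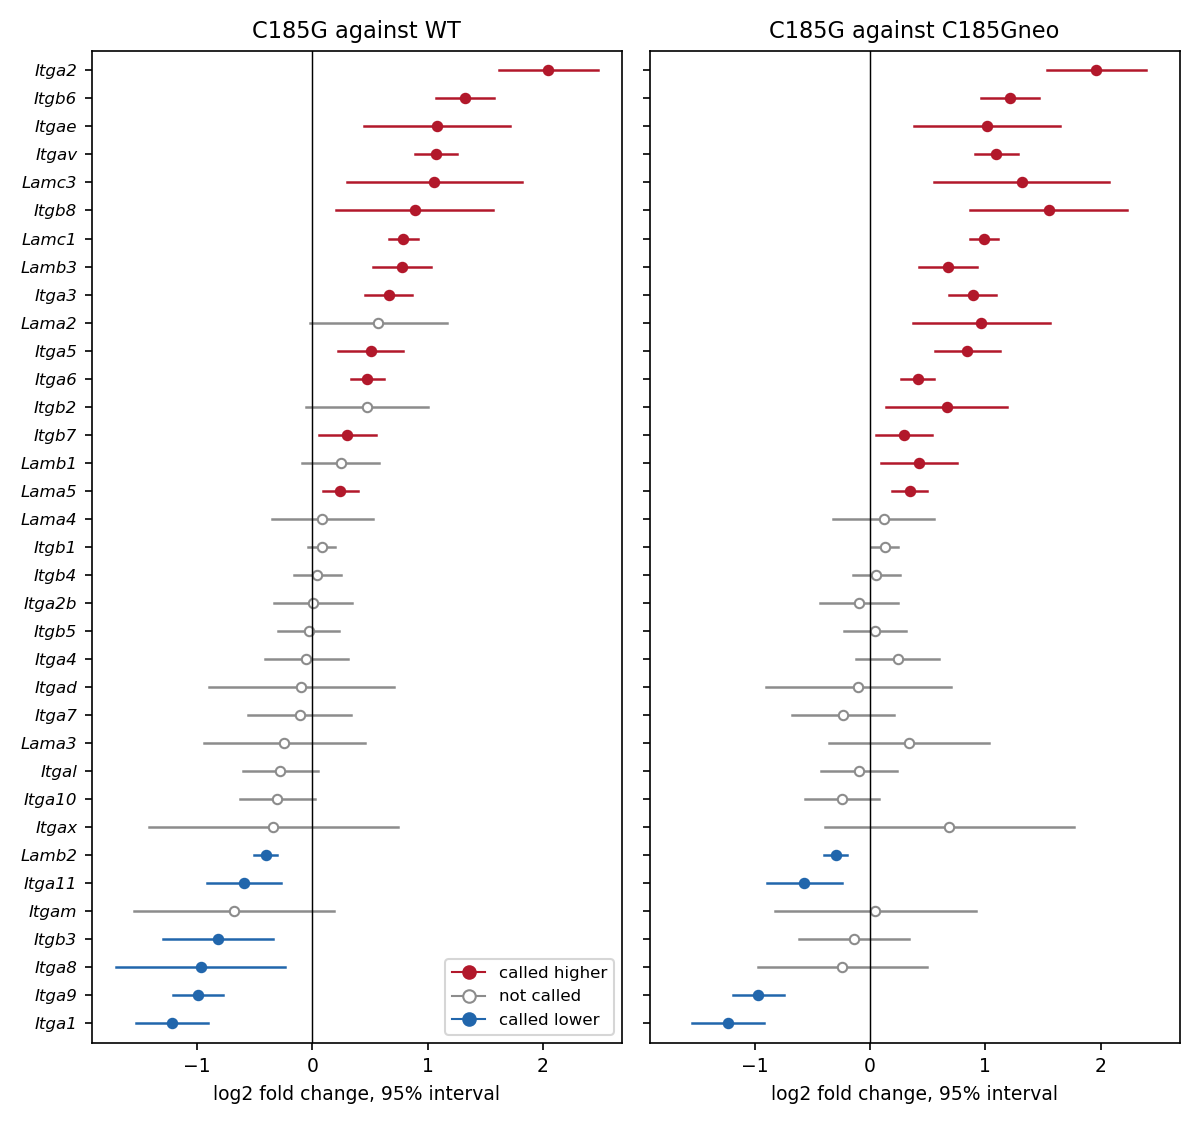
Log2 fold change (x axis, with the 95% interval of the limma fit) of 35 integrin and laminin genes in C185G against WT (left) and against C185Gneo (right), ordered by the left panel. Filled red points were called higher, filled blue points called lower and open grey points not called. Itga2 stands at the top of both panels with values of 2.05 and 1.96, and Itga1 and Itga9 at the bottom with values from -1.23 to -0.97.

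By their level per kilobase of exon, the only scale on which genes are compared here, Itgb1 stood first in every group, at 117 ± 6.32 normalized CPM per kb in C185G, 107 ± 2.12 in C185Gneo and 111 ± 6.04 in WT (SD, n = 4 each). In WT it was followed by Lama5 (83.3), Itga9 (72.9), Lamb2 (51.3) and Itga3 (47.2), and the same 5 genes led in C185Gneo in the same order. In C185G the levels per kb were 98.9 for Lama5, 74.9 for Itga3, 60.1 for Lamb3 and 36.8 for Itga9, so Itga3 and Lamb3 stood above Itga9 there and below it in both controls. The ranges of Lama5 (89.6 to 111) and Itgb1 (108 to 121) overlapped in C185G, so their order there is not beyond the spread.

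Among the laminins, 5 of 10 chains rose and 1 fell in C185G against WT, and 7 rose and 1 fell against C185Gneo. The 6 calls of 10 against WT lie near the background of 55.0% of all genes (27.3% higher and 27.8% lower). Against C185Gneo there were 8 calls of 10, beside 57.8% of all genes (29.2% higher and 28.7% lower). The median log2 fold change of the chains was 0.41 against WT and 0.55 against C185Gneo. Lamc1, a gamma chain of many laminins, lies on the minus strand at chr1:153218922-153332786 (GRCm38). Lamc1 had 350.4, 362, 367 and 411 normalized CPM in C185G, 184, 183, 186 and 196 in C185Gneo, and 222, 224, 213 and 201 in WT. It rose in C185G, without overlap of the groups, by a log2 fold change of 0.79 ± 0.06 against WT (limma, Benjamini-Hochberg adjusted p = 9.39e-08) and 0.99 ± 0.06 against C185Gneo (adjusted p = 1.03e-08). Lamc3 was a low member, at 4.38, 3.45, 2.94 and 3.33 normalized CPM in C185G, 0.941, 2.11, 1.13 and 1.63 in C185Gneo, and 0.801, 2.09, 3.01 and 1.48 in WT. Its log2 fold change of 1.06 ± 0.35 against WT had an adjusted p of 0.0207 in limma with Benjamini-Hochberg adjustment, but the groups overlapped. Leaving out WT replicate 1 or C185G replicate 1 gave adjusted p of 0.0583 and 0.051 (range over the alternatives 0.00477 to 0.0583). Against C185Gneo the value was 1.32 ± 0.35 (adjusted p = 0.00581).

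Of the beta chains, Lamb3 rose and Lamb2 fell. Lamb3 encodes a beta chain of the laminin that anchors epithelia. It had 378, 371, 419 and 421 normalized CPM in C185G, 326, 242, 228 and 212 in C185Gneo, and 265, 237, 216 and 209.7 in WT. All 4 C185G libraries were above all 8 control libraries, of which C185Gneo replicate 1 was the highest. The log2 fold change was 0.78 ± 0.12 against WT (limma, Benjamini-Hochberg adjusted p = 9.44e-05) and 0.68 ± 0.12 against C185Gneo (adjusted p = 0.000283). Lamb2, a beta chain of many basement membranes, had 237, 242, 229.9 and 234 normalized CPM in C185G, 274, 284, 304 and 297 in C185Gneo, and 319.6, 319.6, 308 and 299.9 in WT. The C185G libraries lay below both controls without overlap, and the log2 fold change was -0.40 ± 0.05 against WT (limma, Benjamini-Hochberg adjusted p = 7.94e-06) and -0.30 ± 0.05 against C185Gneo (adjusted p = 0.00011). Lamb1, the other common beta chain, averaged 47.9 ± 7.17 normalized CPM in C185G, 36.0 ± 7.40 in C185Gneo and 40.2 ± 4.86 in WT (SD, n = 4 each), with overlapping groups. It was called only against C185Gneo (log2 fold change 0.43, limma, Benjamini-Hochberg adjusted p = 0.0302). The call was lost without C185Gneo replicate 1 (adjusted p = 0.0677), C185G replicate 2 (0.0743) or C185G replicate 4 (0.09). Fitting only the 8 libraries compared also lost it (0.051, range over the alternatives 0.0145 to 0.09). The value against WT was 0.25 (limma, Benjamini-Hochberg adjusted p = 0.188).

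Lama5, the alpha chain of the main laminins of adult epithelial basement membranes, was the most abundant laminin per length in both controls. It had 1020.4, 1049, 1171 and 1265 normalized CPM in C185G, 905, 964, 818 and 856 in C185Gneo, and 949.8, 940.5, 944 and 959 in WT. The rise was small beside that of Lamc1, with log2 fold changes of 0.24 ± 0.07 against WT (limma, Benjamini-Hochberg adjusted p = 0.0102) and 0.34 ± 0.07 against C185Gneo (adjusted p = 0.000949), and the groups did not overlap. Lama3, the alpha chain that pairs with β3, did not pass the test in either comparison. It had 45.02, 77.3, 75.9 and 74.2 normalized CPM in C185G, 31.3, 51.2, 73.7 and 64.4 in C185Gneo, and 103.5, 66.8, 52.0 and 106 in WT. Its log2 fold change was -0.24 against WT (95% interval -0.94 to 0.45) and 0.34 against C185Gneo (-0.36 to 1.04), so both intervals hold a rise and a fall. Lamb3, its beta partner, thus rose, while Lama3 was not called. Within WT, Lama3 was higher in replicates 1 and 4 than in replicates 2 and 3, and so were 9 of the 10 alveolar type 1 markers. Among them were Rtkn2 (44.9, 17.7, 16.7 and 54.4 normalized CPM in replicates 1 to 4) and Akap5 (110, 53.6, 43.0 and 138), while Aqp5 (405, 413, 378 and 386) did not follow; their part in its level was not tested. Lama2 averaged 12.9 ± 2.31 normalized CPM in C185G, 6.94 ± 3.003 in C185Gneo and 8.79 ± 2.53 in WT, and rose against C185Gneo (limma log2 fold change 0.96, Benjamini-Hochberg adjusted p = 0.00917). Against WT its log2 fold change was 0.57 (adjusted p = 0.0928), with a call when only the 8 libraries compared were fitted (adjusted p = 0.0326) and without WT replicate 3 (0.75, adjusted p = 0.0376), in a range of 0.0326 to 0.229. Lama4, at 20.9 to 30.3 in C185G, 16.6 to 28.7 in C185Gneo and 17.6 to 30.7 in WT, was called in neither. Lama2 and Lama4 are chains of muscle and vascular laminins, and mesenchymal markers stood at a summed 673 to 911 in C185G, 220.1 to 622 in C185Gneo and 575 to 937 in WT; their part in these values was not tested.

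**Figure D2:**
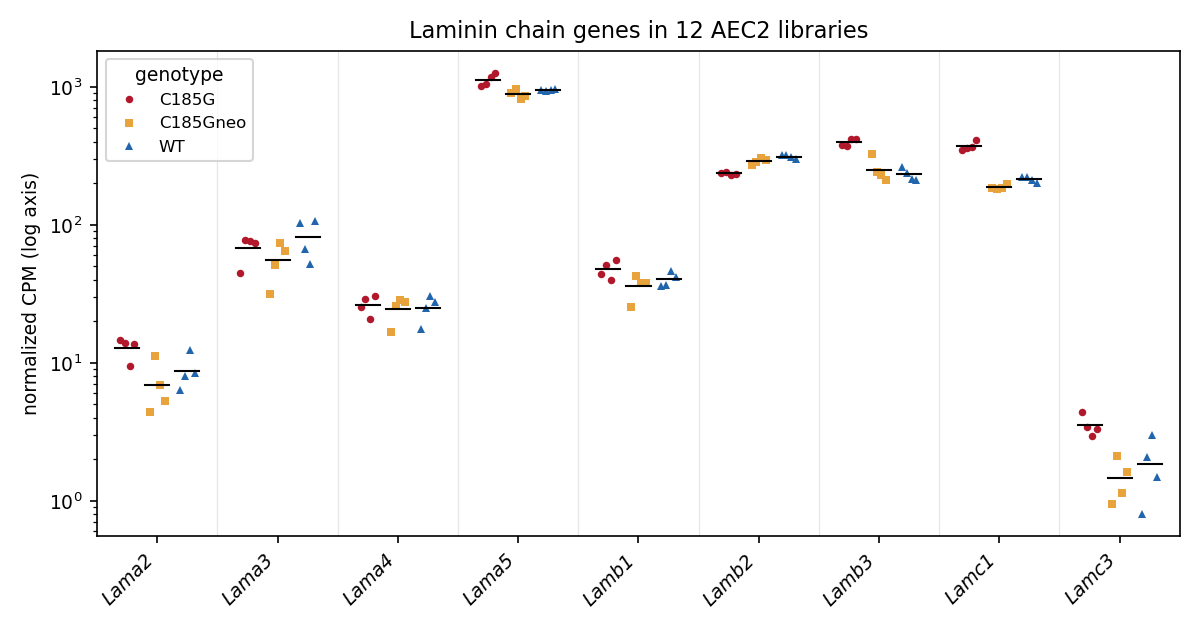
Level of 9 laminin chain genes (y axis, normalized CPM, log axis) in each of the 12 libraries; points are libraries and bars group means, with C185G, C185Gneo and WT from left to right. Lamc1 lies between 350.4 and 411 in the 4 C185G libraries, above all 8 control libraries, while the 3 groups overlap for Lama3 and Lama4.

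Of the per-length level of the laminin beta chains, Lamb3 made up 57.9 ± 2.16% in C185G, 42.4 ± 5.90% in C185Gneo and 38.7 ± 2.08% in WT, and Lamb2 made up 37.4 ± 1.92% in C185G, 53.5 ± 5.06% in C185Gneo and 56.8 ± 1.47% in WT (SD, n = 4 each). For Lamb3 the lowest C185G share was above the highest control share. Lama5 held 91.4 ± 1.17% of the alpha chains in C185G, 91.1 ± 2.78% in C185Gneo and 89.1 ± 1.99% in WT, with overlapping groups. These shares are descriptions and were not tested.

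**Figure D3:**
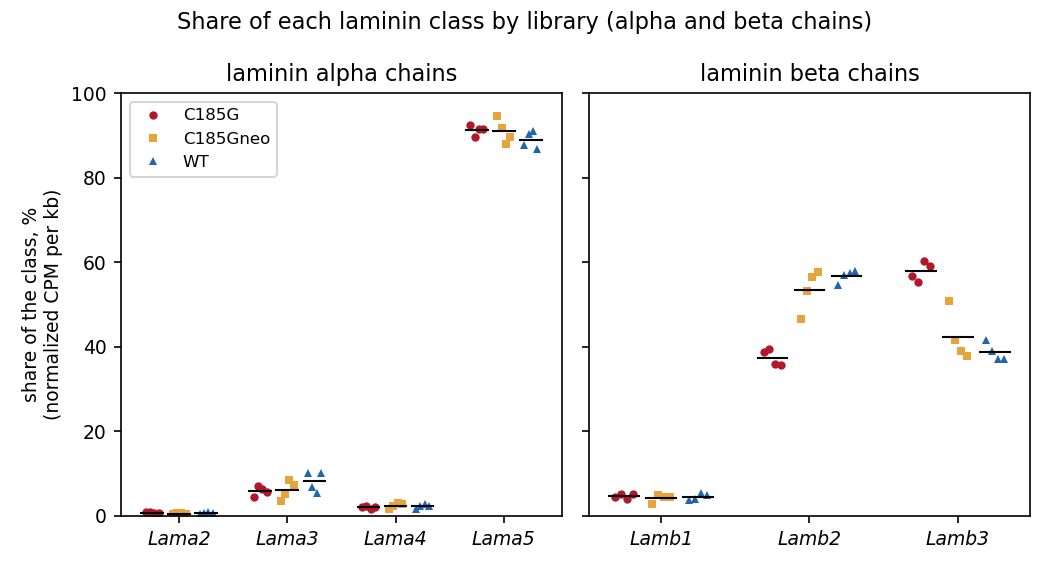
Share of each laminin alpha (left) and beta (right) gene in the level of its chain class (y axis, percent of normalized CPM per kb of exon) in the 12 libraries; points are libraries and bars group means. Lamb3 makes up 55.5 to 60.2% of the beta chains in C185G, against 37.8 to 50.9% in C185Gneo and 37.1 to 41.6% in WT.

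Of the integrin alpha subunits known as laminin receptors, Itga3 and Itga6 rose. Itga3 encodes the partner of β1 in the epithelial receptor α3β1. It had 362, 463, 449 and 437 normalized CPM in C185G, 197, 238, 250.1 and 237 in C185Gneo, and 294, 241, 254 and 289 in WT. Every C185G library was above every control library, by a log2 fold change of 0.66 ± 0.09 against WT (limma, Benjamini-Hochberg adjusted p = 5.19e-05) and 0.89 ± 0.09 against C185Gneo (adjusted p = 3.42e-06). Itga6, which pairs with β1 or with the hemidesmosome subunit β4, had 96.2, 99.9, 112 and 96.6 normalized CPM in C185G, 74.3, 76.2, 70.2 and 82.6 in C185Gneo, and 78.0, 74.1, 70.3 and 67.6 in WT. It rose without overlap by 0.48 ± 0.07 on the log2 scale against WT (limma, Benjamini-Hochberg adjusted p = 4.3e-05) and 0.41 ± 0.07 against C185Gneo (adjusted p = 0.000137). Itga7, a laminin receptor best known from muscle, ranged from 125 to 162 in C185G, 122 to 226 in C185Gneo and 126 to 191 in WT and was not called.

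The beta partners of these receptors did not pass the test. Itgb1 had 439, 494, 491 and 487 normalized CPM in C185G, 425, 435, 439.7 and 445 in C185Gneo, and 472, 472, 424 and 438 in WT. Its log2 fold change was 0.08 against WT (95% interval -0.04 to 0.20, limma with Benjamini-Hochberg adjustment, adjusted p = 0.221) and 0.13 against C185Gneo (0.01 to 0.25, adjusted p = 0.0543). Under some alternatives Itgb1 was called higher. Against WT these were quantile normalization (0.17, adjusted p = 0.0083, range over the alternatives 0.0083 to 0.466) and library totals (0.16, adjusted p = 0.0124). Against C185Gneo they were quantile normalization (0.22, adjusted p = 0.00156, range 0.00156 to 0.127), library totals (0.19, 0.00395), a minimum mean of 5 CPM (0.13, 0.0497) and leaving out C185G replicate 1 (0.17, 0.0123). Itgb4 ranged from 85.0 to 112 normalized CPM in C185G, 88.9 to 104 in C185Gneo and 84.1 to 107 in WT. The interval of its log2 fold change was -0.16 to 0.25 against WT and -0.15 to 0.26 against C185Gneo.

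The subunits of αvβ6 both rose. Itgav, the alpha subunit that binds RGD motifs, had 399, 397, 439.5 and 416 normalized CPM in C185G, 191, 190.5, 173 and 221 in C185Gneo, and 229, 197, 171 and 192 in WT. Itgb6, its epithelial partner, had 135, 170.5, 175 and 183 normalized CPM in C185G, 73.1, 78.0, 57.0 and 78.0 in C185Gneo, and 68.9, 57.3, 66.1 and 71.6 in WT. For both genes the C185G libraries were above all control libraries. Itgav shares 5.90% of its exon bases with Gm13684 on the other strand, which stood at 3.09 normalized CPM over all libraries. Itgav rose by a log2 fold change of 1.07 ± 0.09 against WT (2.1-fold, limma with Benjamini-Hochberg adjustment, adjusted p = 2.47e-07) and 1.10 ± 0.09 against C185Gneo (adjusted p = 1.61e-07). Itgb6 rose by 1.32 ± 0.12 against WT (2.5-fold, adjusted p = 8.4e-07) and 1.21 ± 0.12 against C185Gneo (adjusted p = 1.6e-06), in the same limma fit with Benjamini-Hochberg adjustment. Itgb6 made up 13.6 ± 1.14% of the per-length level of the beta subunits in C185G, 6.92 ± 0.903% in C185Gneo and 6.19 ± 0.657% in WT.

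The 250 bases before the start of both genes are printed because the subunits of this pair moved together. They are from RefSeq (GRCm38.p6), 5′ to 3′ on the strand of the gene: Itgav at chr2:83724147-83724396 on the plus strand, and Itgb6 at chr2:60722604-60722853 on the minus strand, before the start in the table that lies nearest to the annotated gene start. Capitals mark the match to TGACNNNGC, read on either strand, a core of the motif of NRF2, a factor of the oxidative stress response.
Itgav: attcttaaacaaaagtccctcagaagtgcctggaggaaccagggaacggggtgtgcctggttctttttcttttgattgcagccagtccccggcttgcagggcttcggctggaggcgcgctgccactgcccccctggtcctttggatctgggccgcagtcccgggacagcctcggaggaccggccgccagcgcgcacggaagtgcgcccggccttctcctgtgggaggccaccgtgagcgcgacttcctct
Itgb6: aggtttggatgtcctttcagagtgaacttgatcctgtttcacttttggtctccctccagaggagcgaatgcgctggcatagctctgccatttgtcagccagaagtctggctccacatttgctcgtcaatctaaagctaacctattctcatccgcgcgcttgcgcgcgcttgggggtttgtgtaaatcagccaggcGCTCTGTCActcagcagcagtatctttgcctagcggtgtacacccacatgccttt

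Windows of this length were found in the RefSeq table for 23 of the 36 measured members. TGACNNNGC was in those of Itga9, Itgb1 and Itgb6, and in 10.2% of all 32851 windows of the table. TGANTCA, the core of AP-1, a motif that can overlap that of NRF2, was in that of Itgax and in 6.75% of all windows. CATTCC, the core of the TEAD partners of YAP, was in those of Itga10, Itgb1 and Lamb3 and in 12.6% of all windows. Both strands were searched. Of the members with a match, Itgb6 and Lamb3 rose, Itga9 fell, and Itgb1, Itga10 and Itgax were not called in either comparison with C185G.

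The other beta partners of αv went different ways. Itgb8, whose pair αvβ8 also activates latent TGF-β, was the lowest member per length in all 3 groups. It had 1.03, 1.26, 1.199 and 1.05 normalized CPM in C185G, 0.299, 0.333, 0.238 and 0.755 in C185Gneo, and 0.515, 0.735, 0.669 and 0.493 in WT, from 17, 4 and 8 counts in the lowest library of each group. The groups did not overlap, and the log2 fold change was 0.89 ± 0.32 against WT (limma, Benjamini-Hochberg adjusted p = 0.0282) and 1.55 ± 0.32 against C185Gneo (adjusted p = 0.000878). The call against WT was lost without any one of WT replicates 1 and 4 and C185G replicates 2 and 3 (adjusted p of 0.0662, 0.0709, 0.0661 and 0.0608, in a range of 0.00613 to 0.0709). Itgb5 ranged from 25.8 to 32.5 in C185G, 20.7 to 31.3 in C185Gneo and 26.6 to 32.4 in WT and was not called. Itgb3, the vitronectin receptor subunit of endothelial cells and platelets, had 11.0, 14.1, 10.5 and 10.4 normalized CPM in C185G, 7.31, 14.1, 14.2 and 17.0 in C185Gneo, and 23.6, 17.5, 17.7 and 22.004 in WT. It fell against WT (log2 fold change -0.81 ± 0.22, limma, Benjamini-Hochberg adjusted p = 0.00711), whereas the value against C185Gneo was -0.14 (adjusted p = 0.604), and -0.40 without C185Gneo replicate 1 (adjusted p = 0.0249, range over the alternatives 0.0249 to 0.987).

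Of the fibronectin receptor subunits, Itga5 rose: it had 77.0, 79.4, 88.7 and 113 normalized CPM in C185G, 40.2, 47.3, 55.98 and 55.3 in C185Gneo, and 60.2, 71.6, 60.1 and 58.0 in WT. The C185G libraries lay above both controls, by a log2 fold change of 0.51 ± 0.13 against WT (limma, Benjamini-Hochberg adjusted p = 0.0051) and 0.84 ± 0.13 against C185Gneo (adjusted p = 0.000114). Itga8, a receptor of nephronectin found on mesenchymal cells, had 20.4, 16.0, 16.2 and 15.8 normalized CPM in C185G, 8.64, 27.2, 28.4 and 24.3 in C185Gneo, and 28.1, 45.3, 31.7 and 30.4 in WT. It fell against WT (log2 fold change -0.97 ± 0.33, limma, Benjamini-Hochberg adjusted p = 0.0289), a call lost without any one of WT replicate 2 (adjusted p = 0.0774) and C185G replicates 2, 3 and 4 (0.0591, 0.0626 and 0.0678), in a range of 0.000256 to 0.0774. Against C185Gneo its log2 fold change was -0.24 (adjusted p = 0.56), and -0.64 (adjusted p = 0.00239, range 0.00239 to 0.875) without C185Gneo replicate 1, the lowest library of all. The mesenchymal markers Myh11 (54.6 to 66.4 in C185G, 30.8 to 86.7 in C185Gneo, 94.1 to 187 in WT) and Dcn (113 to 145, 15.3 to 72.7 and 46.3 to 76.5, in the same order) went different ways, and their part in the level of Itga8 was not tested.

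Of the subunits that join β1 as collagen receptors, Itga2 rose while Itga1 and Itga11 fell. Itga2 had 2.63, 2.19, 2.62 and 3.26 normalized CPM in C185G, 0.813, 0.556, 0.595 and 0.697 in C185Gneo, and 0.629, 0.622, 0.669 and 0.555 in WT. The lowest C185G library held 47 counts and the lowest control library 9, and the groups did not overlap. Its log2 fold change of 2.05 ± 0.20 against WT (4.14-fold, limma with Benjamini-Hochberg adjustment, adjusted p = 1.51e-06) was the highest of the members; against C185Gneo it was 1.96 ± 0.20 (adjusted p = 2e-06). Itga1 had 4.38, 4.75, 2.89 and 4.435 normalized CPM in C185G, 9.54, 8.56, 9.40 and 10.7 in C185Gneo, and 8.52, 9.45, 9.36 and 10.4 in WT. It fell without overlap by 1.22 on the log2 scale against WT (limma, Benjamini-Hochberg adjusted p = 1.13e-05) and by 1.23 against C185Gneo (adjusted p = 9.12e-06). Itga11 averaged 5.28 ± 0.848 in C185G, 7.86 ± 1.38 in C185Gneo and 7.90 ± 0.698 in WT, with log2 fold changes of -0.59 (limma, Benjamini-Hochberg adjusted p = 0.00426) and -0.57 (adjusted p = 0.00514). Itga10, which shares 33.5% of its exon bases with the same-strand gene Gm42957 and is therefore uncertain, was not called against WT (log2 fold change -0.30, adjusted p = 0.104, and -0.40 with 0.0326 without C185G replicate 1, in a range of 0.0326 to 0.258) or C185Gneo (-0.24, adjusted p = 0.184).

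Itga2 (chr13:114833081-114932100) and Itga1 (chr13:114953096-115101964) are neighbours on the minus strand of chromosome 13 with 20995 bases between them. The 250 bases before each start, which lies at the annotated gene start in both cases, are given because these neighbours moved in opposite directions; neither window holds a match to the 3 motifs, so no base is in capitals. They are from RefSeq (GRCm38.p6), at chr13:114932101-114932350 and chr13:115101965-115102214, 5′ to 3′ on the minus strand.
Itga2: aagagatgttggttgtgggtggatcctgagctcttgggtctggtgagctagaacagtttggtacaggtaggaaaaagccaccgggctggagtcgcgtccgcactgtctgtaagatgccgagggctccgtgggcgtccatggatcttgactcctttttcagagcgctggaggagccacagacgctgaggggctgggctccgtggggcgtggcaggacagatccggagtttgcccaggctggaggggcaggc
Itga1: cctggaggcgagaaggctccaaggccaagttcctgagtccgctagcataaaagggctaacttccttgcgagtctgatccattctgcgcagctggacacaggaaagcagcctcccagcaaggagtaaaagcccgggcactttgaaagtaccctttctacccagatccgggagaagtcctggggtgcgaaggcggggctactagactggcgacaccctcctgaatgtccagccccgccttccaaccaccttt

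Itga9, a subunit that binds tenascin and osteopontin with β1, was the most abundant integrin alpha gene per length in both controls. It had 333, 277, 279 and 242 normalized CPM in C185G, 659.6, 507, 522 and 521 in C185Gneo, and 573, 591, 578 and 499 in WT. All C185G libraries were below all control libraries, and the log2 fold change was -0.99 ± 0.10 against WT (limma, Benjamini-Hochberg adjusted p = 2.7e-06) and -0.97 ± 0.10 against C185Gneo (adjusted p = 3.12e-06). Its share of the per-length level of the alpha subunits was 17.5 ± 2.74% in C185G, 39.0 ± 3.62% in C185Gneo and 37.3 ± 2.15% in WT. Itga3 made up 35.6 ± 2.97% in C185G, 22.1 ± 3.11% in C185Gneo and 24.2 ± 2.63% in WT. For Itgav the share was 18.3 ± 0.549% in C185G, 9.83 ± 1.04% in C185Gneo and 9.37 ± 0.755% in WT (SD, n = 4 each). The summed per-length level of the alpha subunits was closer between groups, at 210.03 ± 6.54 normalized CPM per kb in C185G, 184 ± 8.31 in C185Gneo and 196 ± 11.5 in WT. Itga4, the VCAM-1 receptor subunit of leukocytes, ranged from 10.4 to 15.2 in C185G, 9.99 to 10.9 in C185Gneo and 9.31 to 18.3 in WT and was not called.

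**Figure D4:**
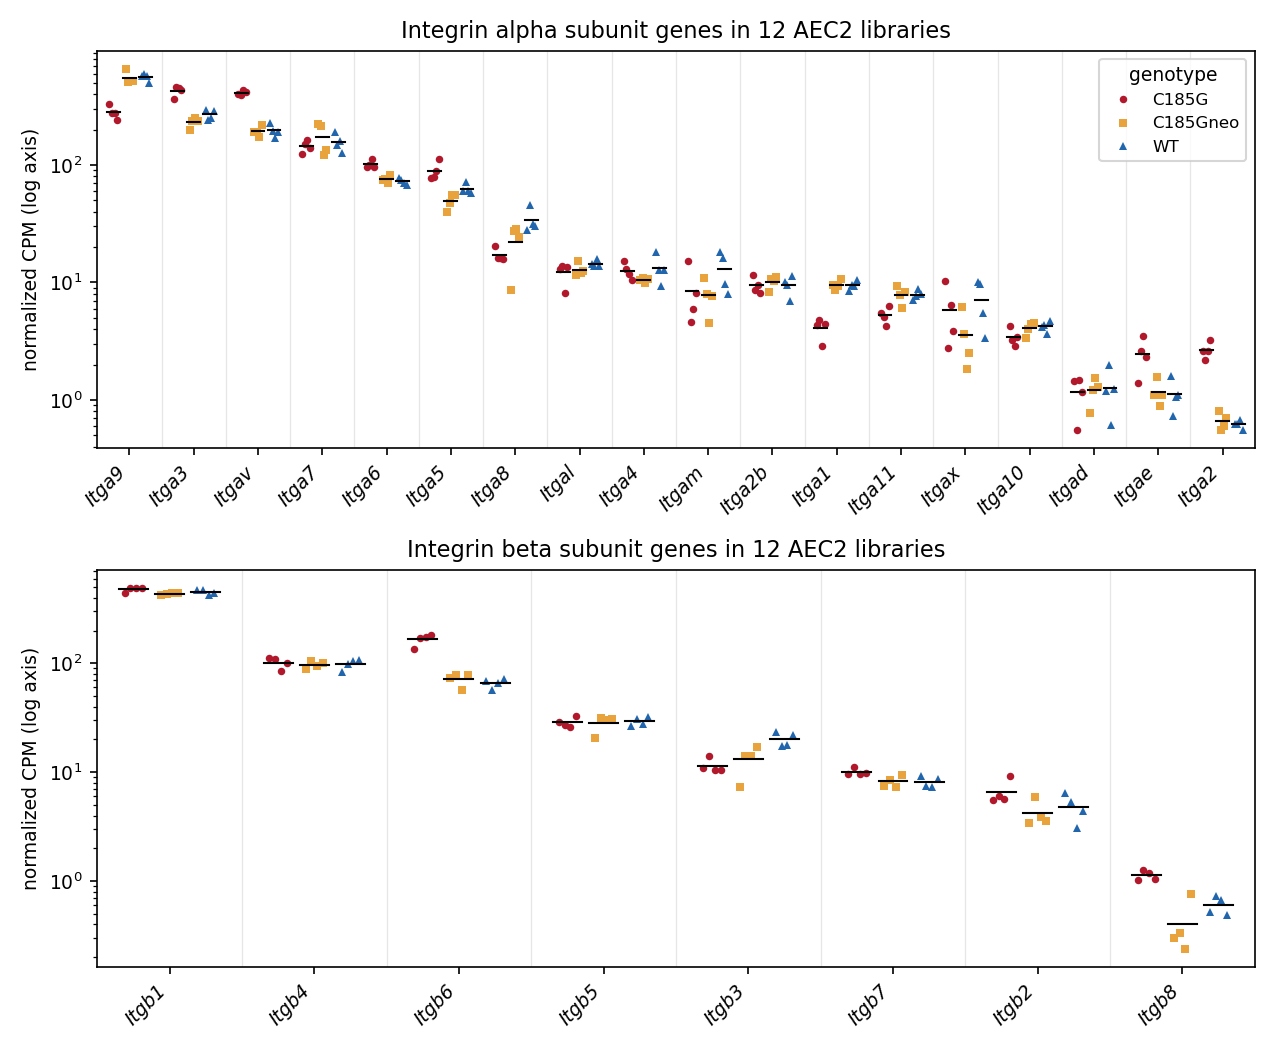
Level of the 18 integrin alpha (top) and 8 integrin beta (bottom) subunit genes (y axes, normalized CPM, log axis) in each of the 12 libraries, ordered by mean level; points are libraries and bars group means, with C185G, C185Gneo and WT from left to right. In the C185G libraries Itga9 lies between 242 and 333, below all 8 control libraries, while Itga3, Itgav and Itgb6 lie above all of them.

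The subunits known from leukocytes and platelets were low and mostly not called. Itgal and Itgam, the alpha subunits of the leukocyte receptors LFA-1 and Mac-1, ranged from 8.18 to 13.9 and from 4.61 to 15.2 normalized CPM in C185G, from 11.6 to 15.1 and from 4.52 to 10.9 in C185Gneo, and from 13.7 to 16.0 and from 7.95 to 18.2 in WT. Itgam, Itgax and Itgad lie in a row on chromosome 7, and Itgam shares 68.7% of its exon bases with the same-strand gene Gm49368, which was not analysed here, so its level is uncertain. Itgad shares 7.32% with the same-strand pseudogene Gm17831 and 1.55% with Cox6a2 on the other strand. Cox6a2 stood at 33.9 normalized CPM over all libraries and Itgad at 1.21, so the level of Itgad is uncertain as well. None of Itgal, Itgam, Itgax, Itgad and the platelet subunit gene Itga2b was called, except Itgam against WT without C185G replicate 1 (log2 fold change -1.01, limma, Benjamini-Hochberg adjusted p = 0.0299, range over the alternatives 0.0299 to 0.382). Itgb2, the beta partner of Itgal, Itgam, Itgax and Itgad, averaged 6.64 ± 1.74 normalized CPM in C185G, 4.19 ± 1.18 in C185Gneo and 4.84 ± 1.44 in WT and was called only against C185Gneo (log2 fold change 0.67, limma, Benjamini-Hochberg adjusted p = 0.0317). That call was lost without any one of C185Gneo replicates 1, 3 and 4 and C185G replicate 4 (adjusted p of 0.0792, 0.0677, 0.0785 and 0.103, in a range of 0.00984 to 0.103). Against WT its value was 0.48 (adjusted p = 0.115), and 0.63 without WT replicate 1 (adjusted p = 0.0491, range 0.0491 to 0.335). The difference between the 2 comparisons was not tested.

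The subunits of the E-cadherin receptor of intraepithelial lymphocytes, Itgae and Itgb7, both rose. Itgae had 1.39, 2.61, 3.49 and 2.34 normalized CPM in C185G, 1.11, 1.56, 0.892 and 1.10 in C185Gneo, and 1.60, 0.735, 1.06 and 1.11 in WT, with an overlap through C185G replicate 1. Its log2 fold change was 1.08 ± 0.30 against WT (limma, Benjamini-Hochberg adjusted p = 0.00667) and 1.01 ± 0.30 against C185Gneo (adjusted p = 0.00939). Itgb7 had 9.58, 11.3, 9.70 and 9.73 normalized CPM in C185G, 7.53, 8.56, 7.38 and 9.46 in C185Gneo, and 9.21, 7.47, 7.30 and 8.69 in WT. Its small changes were 0.30 against WT (limma, Benjamini-Hochberg adjusted p = 0.036) and 0.29 against C185Gneo (adjusted p = 0.0401). The call against WT was lost without any one of 5 of the 8 libraries (WT replicates 2 and 3, C185G replicates 2, 3 and 4), with adjusted p up to 0.105. Against C185Gneo it was lost without any one of 6 of the 8 (C185Gneo replicates 1 to 3, C185G replicates 2 to 4), up to 0.115. Fitting only the 8 libraries compared also lost the call against C185Gneo (adjusted p = 0.0507). The pan-leukocyte gene Ptprc (CD45) stood at 6.85 to 9.36 in C185G, 6.31 to 8.22 in C185Gneo and 6.16 to 9.04 in WT, with overlapping groups. Of the 12 of 18 leukocyte markers measured, 4 rose and 1 fell in C185G against WT, and 5 rose and 1 fell against C185Gneo (limma, Benjamini-Hochberg adjusted p under 0.05). The risers in both comparisons were Cd68, Mrc1 and the neutrophil genes S100a8 and S100a9, joined by Coro1a against C185Gneo, and the 1 that fell was Lyz2. The Mrc1 call against WT was marginal (log2 fold change 0.54, limma, Benjamini-Hochberg adjusted p = 0.0487). It was lost with only the 8 libraries compared, with a replicate block and without WT replicate 1, 2 or 3 or C185G replicate 1, 3 or 4. Mrc1 was also called lower in C185Gneo against WT (-1.22, limma, Benjamini-Hochberg adjusted p = 0.0226), a call lost under several alternatives. Cd68 stood at 28.7 to 39.0 normalized CPM in C185G, 19.5 to 23.2 in C185Gneo and 16.5 to 21.1 in WT, without overlap. S100a8 stood at 4.74 to 27.6 in C185G, 1.03 to 4.11 in C185Gneo and 0.724 to 5.26 in WT. Against WT, 2 rose without any one of WT replicate 3 and C185G replicates 1 and 4. The summed level of the 12 was 1122 to 1811 in C185G, 5846 to 6143 in C185Gneo and 5454 to 6197 in WT, nearly all of it Lyz2, which AEC2 also express; none of the 12 was at 0 in all libraries. The part of leukocytes in these values was not tested.

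Of all genes, 27.3% were called higher and 27.8% lower in C185G against WT, and 29.2% and 28.7% against C185Gneo. Endothelial markers moved with the genotype. Of 12 measured of 14, none rose and 7 fell in C185G against WT, and none rose and 9 fell against C185Gneo (limma, Benjamini-Hochberg adjusted p under 0.05), with summed levels of 272 to 303 normalized CPM in C185G, 294 to 378 in C185Gneo and 309 to 379 in WT. Pecam1, one of them, stood at 13.6 to 23.2 in C185G, 21.1 to 32.8 in C185Gneo and 24.5 to 34.3 in WT. Its call against C185Gneo (limma, Benjamini-Hochberg adjusted p = 0.0401) was lost under several alternatives. Among them were library totals (0.07), a replicate block (0.0622) and leaving out C185G replicate 4 (0.118). Endothelial cells are known to express Itga1 and Itgb3, and the part of these cells in the lower levels of both genes was not tested. Of the 3 platelet markers measured of 6, which bear on Itga2b and Itgb3, 1 (Pf4) fell against WT and 2 (Pf4 and Gp1ba) fell against C185Gneo (1 without any one of the C185Gneo replicates and of C185G replicates 1, 2 and 4). Their summed level was 4.19 to 5.83 in C185G, 5.40 to 7.79 in C185Gneo and 5.997 to 9.59 in WT. Of the 14 mesenchymal markers 1 rose and 2 fell against WT (1 called without any one of C185G replicates 2, 3 and 4 and WT replicate 2), and 9 rose against C185Gneo. The 5 mesothelial markers summed to 555 to 731 in C185G, 70.9 to 600.4 in C185Gneo and 351 to 496 in WT, and 3 of them rose against C185Gneo. Of the 10 alveolar type 1 markers, which bear on Lama3 and several integrins, 3 rose and 2 fell in either comparison, at sums of 2456 to 3078 in C185G, 2405 to 2974 in C185Gneo and 2509 to 3229 in WT. The airway basal and club list was measured for 5 of 8 genes, without the basal markers Krt5, Trp63 and Ngfr; 3 fell in C185G against either control and 1 rose against C185Gneo, with summed levels of 4323 to 4974 in C185G, 4932 to 6447 in C185Gneo and 5173 to 6972 in WT. Some of these counts move with single libraries or settings. Of the alveolar type 1 markers 2 rather than 3 rose against WT without any one of WT replicates 2 and 3 and C185G replicates 2, 3 and 4. In that comparison 3 rather than 2 fell with a minimum mean of 5 CPM, with only the 8 libraries compared and without WT replicate 3. Against C185Gneo 4 rose without C185G replicate 1, and 3 fell without C185Gneo replicate 1 or 4. Of the endothelial markers 1 rose against WT with quantile normalization, with library totals and without any one of WT replicate 1 and C185G replicates 1 and 2. Against C185Gneo 7 rather than 9 of them fell with library totals and without any one of C185Gneo replicate 4 and C185G replicates 2 and 3. The airway gene that rose against C185Gneo was not called without any one of C185Gneo replicates 1 and 2 and C185G replicates 1 and 2. Nor was it called with only the 8 libraries compared or with a replicate block. Against WT this gene was called higher with quantile normalization, with only the 8 libraries compared and with voom weights. With quantile normalization 1 rather than 3 airway genes fell against WT. Of the 3, 1 was also lost with library totals and with a replicate block, and the block called a further airway gene lower. The same gene was lost without WT replicate 2, 3 or 4 or C185G replicate 2, 3 or 4 (limma, Benjamini-Hochberg adjusted p up to 0.094). Against C185Gneo 1 of the 3 was lost with quantile normalization (adjusted p = 0.128), and a further gene fell without C185Gneo replicate 1. Fitting only the 8 libraries compared, 4 mesenchymal and 3 mesothelial markers rose against WT. The part of these cell types in the members' values was not tested.

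Between the controls, C185Gneo against WT, none of the 36 members was called in limma with Benjamini-Hochberg adjustment, where 0.541% of all genes were (40 higher and 47 lower). At an unadjusted p under 0.05 there were 6 members (9.54% of all genes), and limma with voom weights on the recovered counts also called none and had 8 at that level. They include Lamc1, Itgb3, Itga5, Itga3 and Lamb2, all with lower values in C185Gneo, by log2 fold changes of -0.20, -0.67, -0.34, -0.23 and -0.11. Lamc1, Itgb3 and Itga5 did not overlap between the controls (6.86% of all genes). For Lamc1, with 183 to 196 normalized CPM in C185Gneo and 201 to 224 in WT, the adjusted p was 0.211. The medians over the members were -0.09 for all 36 and -0.19 for the laminin chains. Without C185Gneo replicate 1, a choice made after the data were seen, 14 members were higher and 6 lower in C185G against C185Gneo: Itga8 and Itgb3 were then called lower, and Itgb2, Itgb7 and Lamb1 were no longer called.

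Genes that act with integrins and laminins were counted in 4 lists, chosen with earlier results of these data known. Beside the counts of all 4 lists stand the shares over all genes, 27.3% called higher and 27.8% lower against WT. Against C185Gneo these shares were 29.2% higher and 28.7% lower. Of 34 activators and adaptors on the cytoplasmic side of integrins, 14 rose and 8 fell in C185G against WT, and 14 rose and 6 fell against C185Gneo (limma, Benjamini-Hochberg adjusted p under 0.05), with median log2 fold changes of 0.12 and 0.14. The actin crosslinkers Flna and Actn1 and the adaptor Lims1 rose by 0.89, 0.83 and 0.96 against WT and by 1.09, 0.90 and 0.90 against C185Gneo. Flna had 1274, 1363, 1229.6 and 1421 normalized CPM in C185G, 620.3, 633, 618 and 613 in C185Gneo, and 690.4, 775, 682 and 701 in WT. The kinase gene Fyn (-0.89 and -0.53) and the talin gene Tln2 (-0.91 and -1.25) fell in both. The main talin gene Tln1 (-0.07 and -0.01), the focal adhesion kinase gene Ptk2 (0.12 and 0.15) and the adaptor kinase gene Ilk (-0.06 and -0.28) were not called.

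The list of membrane partners and hemidesmosome genes had 13 of 14 genes measured, without Col17a1; 5 rose and 4 fell against WT, and 5 rose and 5 fell against C185Gneo, with medians of 0.15 and 0.10. Cd151, the tetraspanin partner of α3β1 and α6β1, had 188, 209.9, 202 and 196 normalized CPM in C185G, 107, 120.3, 118 and 126 in C185Gneo, and 132, 133, 120.1 and 125 in WT. It rose by 0.64 against WT (limma, Benjamini-Hochberg adjusted p = 8.56e-07) and 0.76 against C185Gneo (adjusted p = 1.56e-07), and the groups did not overlap. The urokinase receptor gene Plaur (0.56 and 0.63) rose and the tetraspanin gene Cd82 (-0.34 and -0.31) fell.

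Of 25 other laminin receptor and basement membrane genes, 8 rose and 5 fell against WT, and 10 rose and 5 fell against C185Gneo, with medians of 0.14 and 0.25. The laminin-binding proteoglycan gene Agrn rose by 0.75 and 0.73, and Nid1, whose product links laminin to collagen IV, by 0.87 and 1.34. Tinagl1, a basement membrane glycoprotein gene, had 318, 407, 361 and 400.4 normalized CPM in C185G, 190.5, 184.6, 206 and 184 in C185Gneo, and 199, 174, 187 and 182 in WT, a rise of 0.997 and 0.95. Its relative Tinag moved the other way, with 6.85, 4.14, 5.56 and 6.78 normalized CPM in C185G, 61.2, 52.9, 58.9 and 61.6 in C185Gneo, and 51.3, 58.1, 46.9 and 45.6 in WT, a log2 fold change of -3.13 against WT (limma, Benjamini-Hochberg adjusted p = 1.92e-09) and -3.35 against C185Gneo (adjusted p = 1.09e-09). The groups of both genes were far apart. Dag1, the gene of the laminin receptor dystroglycan, fell by 0.53 in either comparison.

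Of 29 ligand genes 24 were measured; 7 rose and 6 fell against WT, and 16 rose and 4 fell against C185Gneo, with medians of 0.30 and 0.49. The 13 calls against WT were 8 without WT replicate 4. This list shares collagen genes with the mesenchymal markers and Vwf with the endothelial markers. The part of those cells in the counts of the list was not tested. Mfge8, whose product bridges αv integrins to dying cells, had 269, 283, 326 and 306 normalized CPM in C185G, 49.6, 53.4, 55.0 and 54.5 in C185Gneo, and 59.5, 55.2, 57.0 and 59.8 in WT. Its log2 fold change was 2.35 against WT (limma, Benjamini-Hochberg adjusted p = 2.6e-11) and 2.48 against C185Gneo (adjusted p = 1.16e-11). Spp1, the gene of the αv and α9 ligand osteopontin, rose by 0.93 and 0.61, and the α4 ligand gene Vcam1 by 1.19 and 1.51. The call on Spp1 against C185Gneo was lost without any one of C185Gneo replicate 2 and C185G replicates 2 and 3 (limma, Benjamini-Hochberg adjusted p up to 0.0672). Fn1, the fibronectin gene, was called only against C185Gneo (0.67, adjusted p = 0.0339, against 0.53 and 0.086 for WT, limma with Benjamini-Hochberg adjustment), and that call was lost without any one of C185Gneo replicates 1, 3 and 4 and C185G replicates 1, 2 and 4 (adjusted p up to 0.0833). Tgfb1, whose product αvβ6 activates, fell against WT (-0.39, adjusted p = 0.00688) and was not called against C185Gneo (-0.17, adjusted p = 0.179). The fibrinogen gene Fgg was the only one of the 4 lists called between the controls, with 22.1 to 39.1 normalized CPM in C185Gneo and 7.15 to 10.5 in WT (log2 fold change 1.72, limma, Benjamini-Hochberg adjusted p = 0.0323); this call was lost on leaving out any one of the 8 libraries (adjusted p up to 0.114). In C185G Fgg stood at 2.42 to 7.90.

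**Figure D5:**
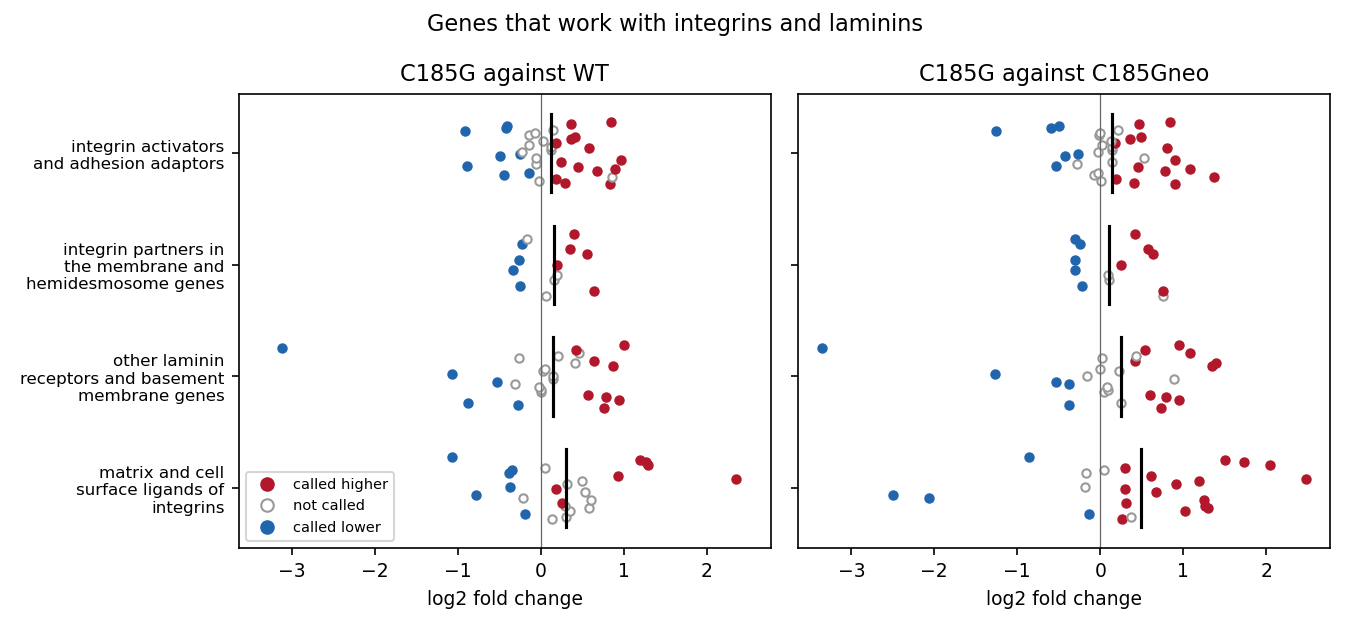
Log2 fold change (x axis) of each measured gene of the 4 lists of integrin and laminin partners (rows) in C185G against WT (left) and against C185Gneo (right); red points were called higher, blue called lower and open points not called, and black bars are list medians. All 4 medians lie between 0.10 and 0.49, with calls in both directions in every list.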

How the data were processed

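RNA of AEC2 was sequenced in 12 libraries, 4 per genotype as given by the labels. For 16080 genes the authors deposited log2 values, which are whole read counts plus 0.5, scaled by 1 factor for each library, as the values themselves show. STAR, limma and mm10 appear without versions in the submitters' processing notes. How reads were counted, with which annotation and on which strand, is not given in the sources used here, so genes with overlapping exons are uncertain. Counts recovered from the spacing were whole for 100% of the values (tolerance 1e-06). Normalized CPM are counts on the authors' factors, divided by the mean scaled total and brought to the CPM scale; levels per kb divide them by the union of exons in the GENCODE vM21 annotation (GRCm38), which also gave the symbols (16017 genes).

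limma 3.58.1 in R 4.3.3 (lmFit, eBayes with trend and robust) was fitted to all 12 libraries with 1 coefficient per genotype. Calls are at a Benjamini-Hochberg adjusted p under 0.05 over all genes; intervals are 95%. The unit was log2, so the count test of the plan was not used. All members may be named; of other genes, 10 fixed ones, the 4 smallest p per list and comparison, and called genes against their list's commoner direction, plus marker genes shown beside a member, chosen after their values were seen. Members and lists were chosen with earlier results of these data known. Depth was 15659512 to 23444287 counts; intervals cover the spread between libraries. The values of 1 member that enters the counts are not reported here.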

Additional observations from a re-analysis of the deposited data

Results flagged for a closer look

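In each group of 4 libraries the library farthest from the others was set against Dixon's 95% critical value for the gap over the range, for 36 members in 3 groups. Of these 108 groups 11 were past it; chance flags about 1 in 20.

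C185Gneo replicate 1 stood apart for Itga8 (ratio 0.867; 8.64 against 24.3 to 28.4 normalized CPM in the other 3 libraries), Itgb5 (0.887; 20.7 against 29.9 to 31.3) and Itga9 (0.888; 659.6 against 507 to 522). The same library had the most counts and the lowest mesenchymal and mesothelial marker sums; their part in these values was not tested.

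C185G replicate 1 stood apart for Lama3 (0.923; 45.02 against 74.2 to 77.3), Itgb1 (0.874; 439 against 487 to 494) and Itga8 (0.886; 20.4 against 15.8 to 16.2). C185G replicate 3 was low for Itga1 (0.837; 2.89 against 4.38 to 4.75), Itgal (0.883; 8.18 against 13.1 to 13.9) and Lama2 (0.842; 9.48 against 13.6 to 14.6). C185G replicate 4 was high for Itgb2 (0.85; 9.24 against 5.61 to 6.05), and C185G replicate 2 for Itgb7 (0.899; 11.3 against 9.58 to 9.73).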

How the results depend on the processing

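No called member changed direction under any alternative run. The number of members called was 17 to 21 in C185G against WT (20 reported) and 18 to 22 in C185G against C185Gneo (21 reported) with each library left out in turn, and 16 to 21 and 18 to 22 over the other settings; between the controls it was 0 throughout. The number of all genes called in C185Gneo against WT (87) was 54 without the mean-variance trend and 40 to 81 with single libraries left out; the cause was not tested, but fewer samples entered the latter fits. Library totals in place of the authors' scaling shifted the median of all genes by 0.0796 and 0.0675 and gave 5357 higher and 3593 lower genes in C185G against WT (59.9% higher, 49.6% in the reported fit) and 5437 and 3923 against C185Gneo (58.1% and 50.5%); members were then 15 higher and 6 lower, and 18 and 4. With a minimum mean of 5 CPM, 30 members were tested and 10 rose and 6 fell against WT. Replicate numbers did not pair the libraries throughout (correlations of same-numbered deviations from -0.30 to 0.25). In C185G against WT no library correlated best with its own number, and in C185G against C185Gneo only replicate 1 did. Between the controls replicates 1, 2 and 4 did (0.25, 0.10 and 0.24, against at most 0.19, 0.09 and 0.04 with other numbers). Replicate 3 did not (0.03 against 0.27), so a pairing of the controls is not settled. The fit with a replicate block called 14 members higher and 6 lower, 17 and 4, and 0 in the 3 comparisons, and 36 genes higher and 27 lower between the controls. For members at few counts (Itgb8, Itgad, Itgae, Itga2 and Lamc3, with 4 to 14 counts in their lowest library) the added 0.5 understates the fold changes. Of these, Itgb8, Itgad, Itgae and Lamc3 had wide intervals (standard errors of 0.32, 0.37, 0.30 and 0.35), but Itga2 did not (0.20). Itgax had a wider one (0.49), with 31 counts in its lowest library.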
